A study of Mus musculus x Mus spretus with 8 samples.

Results

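Interferon-stimulated genes were followed as a list of 41 mouse genes whose RNA is known to rise when a cell senses interferon. Each symbol was matched to its Ensembl gene in the deposited count table, which holds 49670 genes. All 41 were found, and all 41 passed the filter on low counts that left 17839 genes for testing. The genes were listed by known function, with earlier results of these data known.

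RNA was sequenced from Patski cells, a female fibroblast line from a cross of C57BL/6 and SPRET/EiJ (Mus spretus) mice. The 8 libraries form 4 groups of 2: lines labelled as homozygous null for Stc1 (Stc1-KO), for Pygo1 (Pygo1-KO) or for Rlim (Rlim-KO), and the unmodified line (WT). Every group was grown in the same serum medium, with no interferon, virus or other agent named in the labels. The series description calls the knockouts independent mutants and says nothing of how the WT pair arose, so a p-value here reflects the variation among these libraries and no more.

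Cells make interferon after viral RNA or DNA is detected, and interferon then binds receptors on the same or on nearby cells. The receptors activate the kinases JAK1 and TYK2, which phosphorylate STAT proteins such as STAT2; with IRF9 these enter the nucleus and switch on a shared set of genes. The products include nucleic acid sensors, proteins that block viral RNA or particles, ubiquitin-like modifiers, antigen processing subunits and chemokines. Fibroblasts are a classic responder cell, and many of the genes are also read at a low level without any infection.

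A pair of gene families in the list consists of near copies, and their coding starts are printed because reads from them can be assigned to either copy. Ifit3 and Ifit3b, which encode RNA-associated antiviral proteins, lie on chromosome 19 (34583531 to 34588731 and 34607970 to 34613401, plus strand, GRCm38). Oas1a and Oas1g, which encode enzymes of the 2′-5′ oligoadenylate system, lie on chromosome 5 (120896256 to 120907521 and 120876142 to 120887613, minus strand). The first 90 coding bases of each, from GENCODE M21, read 5′ to 3′ as follows, with capitals marking a base that differs within the pair.
Ifit3: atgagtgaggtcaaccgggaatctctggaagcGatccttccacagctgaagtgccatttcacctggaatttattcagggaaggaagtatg
Ifit3b: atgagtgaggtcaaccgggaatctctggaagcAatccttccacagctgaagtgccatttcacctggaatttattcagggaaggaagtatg
Oas1a: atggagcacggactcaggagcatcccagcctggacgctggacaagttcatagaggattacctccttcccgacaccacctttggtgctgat
Oas1g: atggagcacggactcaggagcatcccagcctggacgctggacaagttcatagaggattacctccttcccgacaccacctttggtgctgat
Over all 1212 coding bases, Ifit3 and Ifit3b were identical at 1201 (99.09%). Over 1104 bases, Oas1a and Oas1g were identical at 1068 (96.74%). Of all stretches of 50 bases in their transcripts, 51.2% of those of Ifit3 and 57.6% of those of Oas1a also occurred in another gene. The values of these 4 genes are therefore uncertain as to which copy the reads came from.

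The libraries held 73128996 to 81500061 counts, so 1 read was worth 0.0125 to 0.0139 CPM (counts scaled to equal library size). The targeted RNA was not called lower under any label (edgeR adjusted p = 0.236 for Stc1, 0.715 for Pygo1 and 0.699 for Rlim), so each group name stands for the label alone. Stc1 had 3.67 and 68.4 CPM in the libraries labelled Stc1-KO, against 3.84 and 3.15 CPM in WT, and the high value is replicate 2. Pygo1 had 2.50 and 0.674 CPM in Pygo1-KO, against 2.49 and 2.44 CPM in WT. Rlim had 71.9 and 64.2 CPM in Rlim-KO, both above the 57.2 and 51.4 CPM in WT. The fibroblast label was met by Vim at 833 to 1279 CPM and by high Fn1, whereas Thy1, Lum and Col1a2 were at or near 0 and the nephric factor Pax2 stood at 649 to 1158 CPM. Of the 8 leukocyte and macrophage markers, Ptprc, Adgre1, Itgam and Tyrobp were at or near 0 in every library. Their summed level was 96.1 to 112.6 CPM in Stc1-KO, 87.4 to 112.5 in Pygo1-KO, 85.2 to 85.3 in Rlim-KO and 104 to 110 in WT, almost all of it Csf1r and Cd14, and 3 of the 8 markers passed 1 CPM in each group. Cd68 was the 1 of them that rose in Pygo1-KO, to 7.61 and 6.52 CPM, against 1.81 and 2.39 CPM in WT (edgeR adjusted p = 0.0169), and its part in the results below was not tested. Of the 5 plasmacytoid dendritic cell markers, Siglech and Ccr9 were also at or near 0, while Bst2, Tcf4 and Irf8 passed 1 CPM in each group. The 5 summed to 75.7 to 97.9 CPM in Stc1-KO and 114 to 121 in Pygo1-KO. In Rlim-KO the sum was 67.6 to 68.3 CPM and in WT 78.2 to 84.5, and Bst2, itself a member, was the largest part. In bulk RNA, fewer cells with a transcript and less transcript per cell cannot be told apart.

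The summed level of the 41 genes was 350 and 614 CPM in the libraries labelled Stc1-KO, 463 and 538 CPM in Pygo1-KO, 343 and 354 CPM in Rlim-KO, and 426 CPM in both WT libraries. Replicate 2 of Stc1-KO thus held the highest sum, and the Rlim-KO pair lay below WT in total. Much of that lay in Ifit3, with a mean of 20.6 CPM in Rlim-KO against 76.8 in WT, and its near copy Ifit3b, with 8.46 against 25.4. By number, 19 members lay above both WT libraries in Rlim-KO and 11 below. Per kilobase of exon, the most abundant in WT was Bst2, which encodes tetherin, a membrane protein that holds budding virus at the cell surface, at a level of 63.0 CPM per kb. Ifit3 followed at 44.0 CPM per kb, and Ifi35 and Ifi27 at 13.2 and 13.1. At the low end, the RNA sensor gene Ifih1 had a level of 0.0259 CPM per kb and Ifi44 of 0.0177 CPM per kb.

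Against WT, 3 of the 41 genes passed the test in Pygo1-KO (edgeR quasi-likelihood test, Benjamini-Hochberg adjusted p under 0.05): Ifi204 and Trim30a rose, and Trim25 fell. In Stc1-KO and in Rlim-KO, Trim25 was the 1 gene that passed, and it fell in both. Of all genes tested, 2.35% were called in Pygo1-KO (1.54% higher, 0.807% lower), 0.577% in Stc1-KO (0.286% higher, 0.291% lower) and 1.4% in Rlim-KO (0.785% higher, 0.617% lower). The counts rest on single libraries: without either library of WT or of Rlim-KO they were 0 in all 3 comparisons (0.016 to 0.241% of all genes), and without replicate 1 or 2 of Stc1-KO they were 22 and 21 in Pygo1-KO, 24 and 8 in Stc1-KO, and 10 each in Rlim-KO. The calls over all genes moved with them, to 19.7 and 19.8% in Pygo1-KO, 24 and 6.51% in Stc1-KO, and 16.3% each in Rlim-KO. Leaving out either Pygo1-KO library lowered the count in Pygo1-KO, raised it in Stc1-KO and left it unchanged in Rlim-KO. Calls over all genes fell in Pygo1-KO too, and rose in both other labels. A single library then stands for Pygo1-KO. The median log2 fold change of the list was 0.80 in Pygo1-KO, 0.52 in Stc1-KO and 0.05 in Rlim-KO, beside medians of -0.00, 0.01 and 0.01 over all genes. These 3 comparisons share the WT libraries. At an unadjusted p under 0.05 the numbers were 15, 11 and 10 members in Pygo1-KO, Stc1-KO and Rlim-KO, where 20.6%, 16% and 17.9% of all genes passed it.

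Counting genes whose libraries all lay on 1 side of both WT libraries shows separation from WT in each direction. In Pygo1-KO, 26 of 41 lay above WT and 8 below, where 29.6% and 31% of all genes did so. In Stc1-KO, 8 lay above and 10 below, where all genes gave 22.2% in each direction. In Rlim-KO, 19 lay above and 11 below, against 35.7% and 35.6% of all genes. The list leaned above WT in Pygo1-KO, while its 26 genes there include 24 that did not pass the test. A fit at least 2-fold above WT was found for 13 members in Pygo1-KO, 9 in Stc1-KO and 9 in Rlim-KO, where 9.48%, 7.07% and 7.48% of all genes had one. At least 2-fold below WT were 4, 5 and 4 members, beside 4.13%, 3.72% and 4.25% of all genes.

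Markers of other cell types moved in the same labels. Cdh1, the epithelial cadherin, fell to 0.201 and 0.344 CPM in Pygo1-KO, against 9.52 and 8.91 CPM in WT (edgeR adjusted p = 0.0161). The 5 epithelial markers summed to 2.20 to 2.57 CPM in Pygo1-KO and 12.3 CPM in WT, with none over 1 CPM in Pygo1-KO. Cldn2, a tight junction protein on the nephric list, fell to 51.4 and 53.6 CPM in Pygo1-KO, against 133 and 132 CPM in WT (adjusted p = 0.00590). Fn1, the matrix protein fibronectin, rose to 3808 and 4562 CPM in Pygo1-KO, against 2229.6 and 2343 CPM in WT (edgeR adjusted p = 0.0413). It had 3966 and 4536 CPM in Stc1-KO and 1545 and 1593 CPM in Rlim-KO, without a call. Of the 7 tested fibroblast markers, 4 lay above both WT libraries in Stc1-KO, 6 in Pygo1-KO and 5 in Rlim-KO. Of all genes, 22.2%, 29.6% and 35.7% did so. In Rlim-KO, 2 of the markers lay below WT, where 35.6% of all genes did. Cdh1 also fell in Rlim-KO, and Cldn2 in both other labels. Of the 2 tested endothelial markers, 1 was called higher in Rlim-KO. Pecam1 had 2.27 and 2.26 CPM there, against 0.0260 and 0.163 CPM in WT. The part of these markers in the results on the list was not tested.

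**Figure D1:**
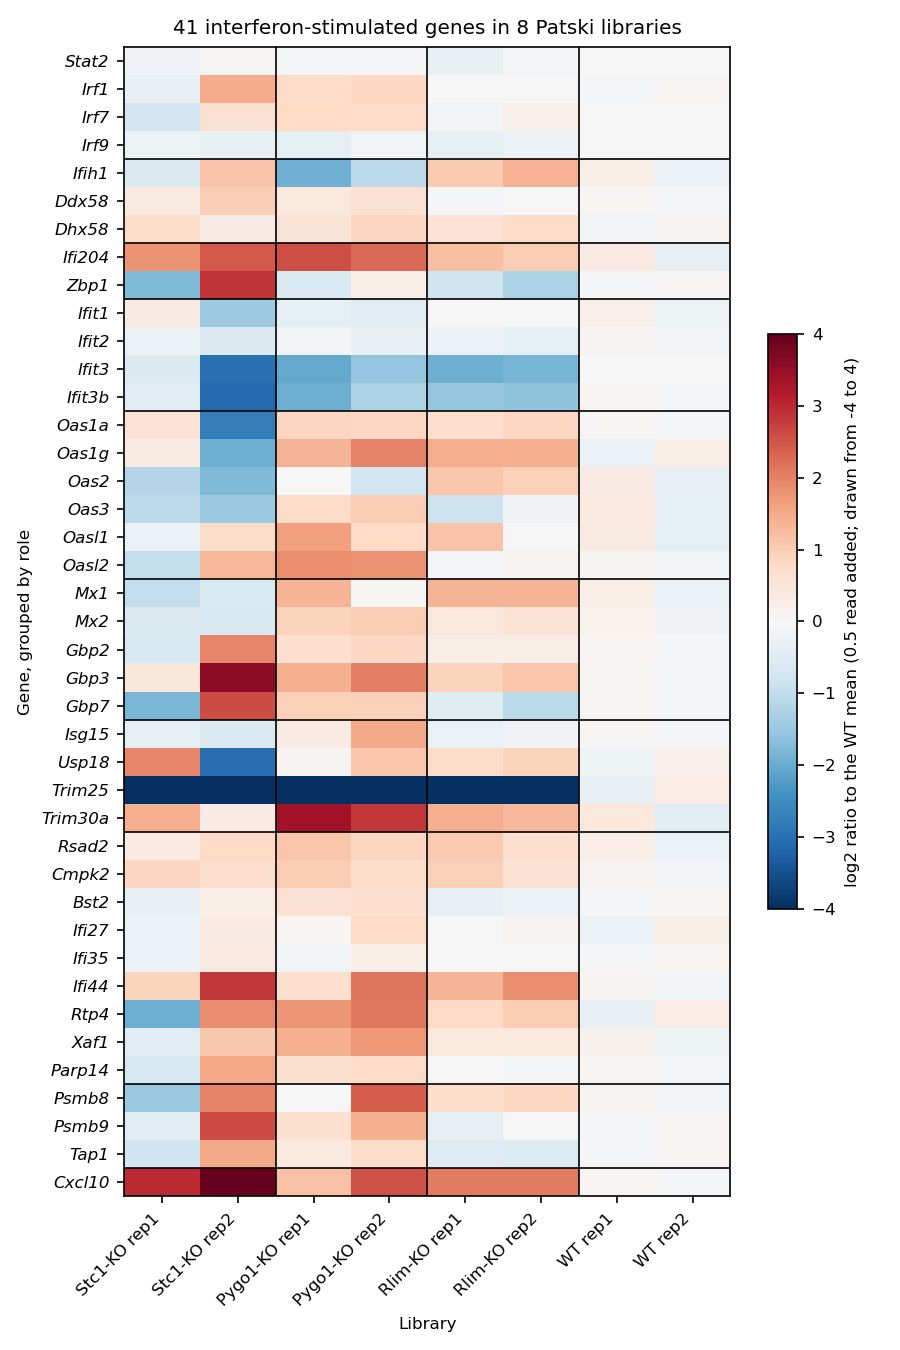
Log2 ratio of each of the 41 genes (rows, grouped by role) to its WT mean in every library (columns, Stc1-KO, Pygo1-KO and Rlim-KO left of WT). The Trim25 row is low in all 6 knockout libraries, and the 2 Stc1-KO columns differ from each other, with library medians of -0.30 and 0.62.

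The pair labelled Stc1-KO did not match within itself. Among the 29 members with a mean of at least 1 CPM, 17 differed over 2-fold between its replicates, 12 of them higher in replicate 2 and 5 lower, whereas 13.6% of all such genes differed that much. The corresponding numbers were 4 members in Pygo1-KO (4.71% of all genes), 0 in Rlim-KO (0.0995%) and 0 in WT (0.161%). Higher in replicate 2 were Irf1, Irf7, Oasl2, Gbp2, Gbp3, Gbp7, Rtp4, Xaf1, Parp14, Psmb8, Tap1 and Cxcl10, and lower were Ifit3, Ifit3b, Oas1a, Usp18 and Trim30a. Gbp7, a guanylate-binding GTPase, was 22.0 times as high in replicate 2 as in replicate 1, and Usp18, the protease that removes ISG15 from proteins, was 34.2 times as high in replicate 1 as in replicate 2. The list therefore did not shift in 1 direction between these libraries, of which replicate 2 is the one with Stc1 at 68.4 CPM. Cdh5, an endothelial cadherin, stood at 6.01 and 100.3 CPM in the same pair, against 1.59 and 1.54 CPM in WT, and its part in the result was not tested.

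Among the transcription factors, none passed the test against WT. Stat2 and Irf9, which act together in the interferon-activated transcription factor complex, kept to 25.8 to 33.1 CPM and 16.7 to 21.9 CPM over all 8 libraries. Irf1, a factor induced mainly by interferon gamma, was measured at 37.0 and 127 CPM in Stc1-KO, 78.2 and 80.4 CPM in Pygo1-KO, 45.4 and 45.1 CPM in Rlim-KO, and 44.3 and 46.9 CPM in WT. Both Pygo1-KO libraries lay above WT, and the Stc1-KO pair lay on either side of it. The log2 fold change of Irf1 was 0.85 ± 0.48, 0.80 ± 0.48 and -0.01 ± 0.47 in these labels (SE; edgeR adjusted p = 0.433, 0.393 and 0.993). Irf7, the factor that amplifies interferon production, ranged from 4.36 to 13.0 CPM and did not pass.

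The cytosolic RNA sensors Ddx58 (RIG-I), Ifih1 (MDA5) and Dhx58 (LGP2) gave no call. Ddx58 had 19.3 and 29.5 CPM in Stc1-KO, 20.1 and 22.6 in Pygo1-KO and 14.1 and 14.6 in Rlim-KO, against 15.3 and 14.5 CPM in WT. Its Stc1-KO and Pygo1-KO libraries lay above both WT libraries, with log2 fold changes of 0.71 ± 0.21 and 0.52 ± 0.21 (SE; edgeR adjusted p = 0.188 and 0.222). Dhx58 lay above WT in all 6 knockout libraries, by log2 fold changes of 0.54 to 0.70. Ifih1 was at most 0.553 CPM anywhere. Zbp1, a sensor of left-handed nucleic acid that triggers cell death, reached 1.94 CPM in replicate 2 of Stc1-KO and stayed at or below 0.303 CPM in the other libraries.

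Ifi204, a member of the Ifi200 family of DNA-binding proteins (chromosome 1, 173747293 to 173766943, minus strand), rose in Pygo1-KO. It was measured at 2.88 and 2.28 CPM in Pygo1-KO, 1.65 and 2.61 CPM in Stc1-KO, and 1.10 and 0.977 CPM in Rlim-KO, against 0.599 and 0.376 CPM in WT. All 6 knockout libraries lay above both WT libraries. The rise in Pygo1-KO was 5.29-fold (log2 2.40 ± 0.36 SE, n = 2 per group; edgeR adjusted p = 0.0294), from 395 reads against 76 in WT. In Stc1-KO the log2 fold change was 2.12 ± 0.36 (edgeR adjusted p = 0.0666), and in Rlim-KO it was 1.09 ± 0.35 (adjusted p = 0.175). The Pygo1-KO call was lost without either library of Pygo1-KO, Rlim-KO or WT, at edgeR adjusted p = 0.0641 to 0.304, with a log2 fold change of 2.11 to 2.78.

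Ifi204 sits in a cluster of related genes, and several of its neighbours moved with it in Pygo1-KO. Mndal and Ifi203 rose there by log2 fold changes of 3.82 ± 0.39 and 3.39 ± 0.35 (SE; edgeR adjusted p = 0.00983 for both), and Ifi209 and Ifi202b by 2.72 and 2.02 (adjusted p = 0.0220 and 0.0362). Ifi211 had a log2 fold change of 2.01 (adjusted p = 0.0506). Without a call, Mndal and Ifi203 had 2.10 and 2.08 in Stc1-KO (edgeR adjusted p = 0.0749 and 0.0644). In Rlim-KO they had 1.18 and 1.88 (edgeR adjusted p = 0.178 and 0.0552). Genes around Ifi204 with 20 to 80% of genome 1 in WT had a median share of 63.3 and 47.4% in Pygo1-KO. In WT it was 64.1 and 63.95%, and the part of this shift was not tested. Aim2, which encodes the DNA sensor of an inflammasome, had 4.23 without passing (adjusted p = 0.116), and Gm2710, at the edge of the stretch examined, had -0.07. Of the 50-base stretches of Ifi204, 20% also occur in another gene, 14.8% in Ifi211, so reads may be divided among the cluster. Levels of this cluster were low, with Ifi203 at 3.59 and 2.33 CPM in Pygo1-KO against 0.287 and 0.276 CPM in WT.

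**Figure D2:**
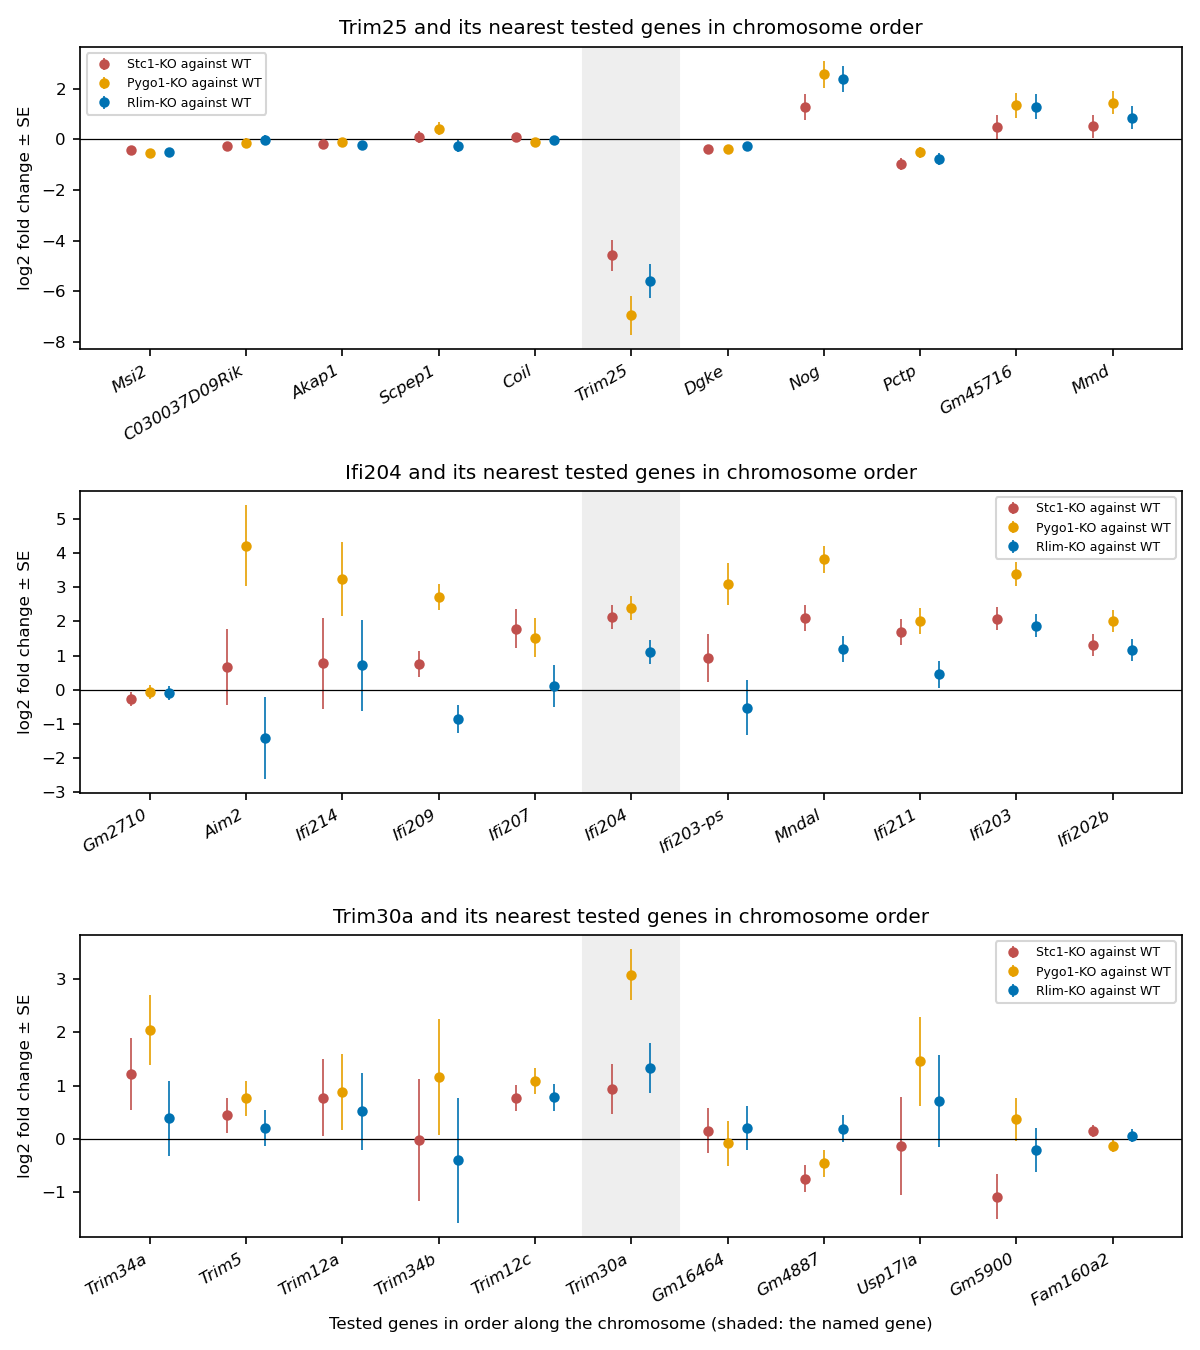
Log2 fold change ± SE against WT of Trim25, Ifi204 and Trim30a (centre of each panel) and of the 5 tested genes on either side in chromosome order, with Stc1-KO, Pygo1-KO and Rlim-KO as separate points. Trim25 is the lowest gene of its panel in all 3 labels, while Ifi204 lies within a stretch of related genes, most of which lie above 0 in Pygo1-KO.

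The IFIT genes, which encode RNA-associated antiviral proteins, lay below WT or overlapped it, and none passed. Ifit3 had 51.9 and 9.66 CPM in Stc1-KO, 18.6 and 25.8 CPM in Pygo1-KO and 19.9 and 21.3 CPM in Rlim-KO, against 78.1 and 75.5 CPM in WT. All 6 knockout libraries were below WT, by log2 fold changes of -1.32 ± 0.65, -1.79 ± 0.66 and -1.90 ± 0.66 (SE; edgeR adjusted p = 0.373, 0.192 and 0.198). Ifit3b, its near copy, had 18.9 and 2.96 CPM in Stc1-KO, 6.53 and 10.6 in Pygo1-KO and 8.62 and 8.30 in Rlim-KO, against 27.0 and 23.8 CPM in WT. The order of the groups was alike for both copies, whose coding starts differ at 1 of the 90 bases printed above. By DESeq2, Ifit3 passed in Pygo1-KO and in Rlim-KO. Ifit2, next to Ifit3 on chromosome 19, also lay below WT in every knockout library, by log2 fold changes of -0.41 to -0.20.

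The OAS genes encode enzymes that make 2′-5′ oligoadenylate, the activator of the RNA-cutting enzyme RNase L, and the related proteins OASL1 and OASL2. None of the 6 passed against WT. Oas1a, the highest of them in the mean over 8 libraries, although Oasl2 was higher in replicate 2 of Stc1-KO and in both Pygo1-KO libraries, had 2.52 and 0.240 CPM in Stc1-KO, 3.06 and 2.97 in Pygo1-KO and 2.65 and 2.97 in Rlim-KO, against 1.72 and 1.63 CPM in WT. Pygo1-KO and Rlim-KO lay above WT and the Stc1-KO pair on either side (log2 -0.28 ± 0.83, 0.85 ± 0.82 and 0.75 ± 0.82 SE for Stc1-KO, Pygo1-KO and Rlim-KO, edgeR adjusted p = 0.901, 0.603 and 0.688). Above both WT libraries lay 0 of the 6 OAS genes in Stc1-KO, 5 in Pygo1-KO and 3 in Rlim-KO, where 22.2%, 29.6% and 35.7% of all genes did, and 2 lay below in Stc1-KO. Oas2 stood at 0.125 and 0.0799 CPM in Stc1-KO and 0.629 and 0.565 CPM in Rlim-KO, a log2 difference of -2.53 between these labels (edgeR adjusted p = 0.0865).

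Mx2, which encodes a dynamin-like antiviral GTPase (chromosome 16, 97535308 to 97560900, plus strand), was the 1 member that passed between knockout labels. It had 8.45 and 9.34 CPM in Pygo1-KO, 3.10 and 2.94 CPM in Stc1-KO, 6.13 and 6.81 CPM in Rlim-KO, and 5.12 and 4.12 CPM in WT. The groups did not overlap: Pygo1-KO was highest, Rlim-KO above WT, and Stc1-KO lowest. Pygo1-KO was 2.94-fold above Stc1-KO (log2 1.56 ± 0.19 SE; edgeR adjusted p = 0.0175), while against WT the Pygo1-KO value of 0.94 ± 0.19 had an adjusted p of 0.0567. Of all genes, 1.74% were called between Pygo1-KO and Stc1-KO, and without overlap 18.3% lay higher in Pygo1-KO and 19.2% lower, as 14 and 3 members did. The call was lost without either library of WT or Rlim-KO and without replicate 2 of Pygo1-KO, and with the Pygo1-KO and Stc1-KO libraries alone, where 0 of all genes were called. Mx1, its paralogue on the same chromosome, stayed under 0.6 CPM in every library.

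Guanylate-binding proteins coat vacuoles and bacteria inside the cell, and 3 of them were in the list. Gbp2 had 14.9 and 91.3 CPM in Stc1-KO, 37.6 and 41.2 in Pygo1-KO and 28.3 and 28.3 in Rlim-KO, against 24.5 and 22.3 CPM in WT. Gbp3 had 2.76 and 24.1 CPM in Stc1-KO, 5.34 and 8.18 in Pygo1-KO and 3.76 and 4.29 in Rlim-KO, against 2.08 and 1.93 CPM in WT. Every knockout library lay above WT for Gbp3, and all but replicate 1 of Stc1-KO did for Gbp2. The log2 fold changes of Gbp3 were 2.74 ± 0.87, 1.75 ± 0.84 and 1.00 ± 0.83 in Stc1-KO, Pygo1-KO and Rlim-KO, and none passed (SE; edgeR adjusted p = 0.208, 0.291 and 0.579). In replicate 2 of Stc1-KO, the median of the tested genes around Gbp2, the other Gbp genes among them, was 1.36 above the WT mean on the log2 scale, and in replicate 1 the same genes had a median of -0.79.

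Trim25 encodes the ubiquitin ligase that modifies RIG-I and lies on chromosome 11 (88999376 to 89020293, plus strand). It had 0.0277 and 0.0532 CPM in Stc1-KO, 0 and 0.0138 CPM in Pygo1-KO and 0.0131 and 0.0257 CPM in Rlim-KO, against 0.807 and 1.22 CPM in WT. In reads, the knockout pairs held 6, 1 and 3, and the WT pair 159. All 6 knockout libraries were near 0, and WT itself was low.

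With reads this few, the ratio is best given with its counting interval, which covers counting error alone. Trim25 stood at 0.0401 times its WT level in Stc1-KO (95% interval 0.0145 to 0.0893), at 0.00647 times in Pygo1-KO (0.000163 to 0.0366) and at 0.0192 times in Rlim-KO (0.00391 to 0.0570). The fitted log2 fold changes, which depend on the prior count at this depth, were -4.58 ± 0.61, -6.94 ± 0.77 and -5.59 ± 0.67 (SE, n = 2 per group; edgeR adjusted p = 0.0346, 0.0135 and 0.0228). All 3 labels thus fell against the same WT pair. Without either WT library or either Rlim-KO library none of the 3 calls passed, at edgeR adjusted p = 0.0579 to 0.451. The Stc1-KO call was also lost with the Stc1-KO and WT libraries alone (edgeR adjusted p = 0.181). Asking for at least 1 CPM in at least 2 libraries removed Trim25 from the test.

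The genes beside Trim25 gave no call. Coil, the nearest tested gene on 1 side, had log2 fold changes of 0.08, -0.10 and -0.03 in Stc1-KO, Pygo1-KO and Rlim-KO, and Dgke on the other side had -0.39, -0.38 and -0.27, with no call for either. None of the 5 tested genes on either side was called in any of the 3 comparisons, although Nog had log2 fold changes of 1.29, 2.58 and 2.38. Both genomes were read for Trim25 in WT, with genome 1 at 40.6% of 32 reads and 62.5% of 56 reads. The neighbours' median share of genome 1 was 31.0 to 33.6% in all 8 libraries, with little spread between the knockout and WT libraries. These neighbours were chosen for a share of 20 to 80% in WT.

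Trim30a, which encodes a ring-finger protein of innate signalling (chromosome 7, 104409025 to 104465193, minus strand), rose in Pygo1-KO. Its level was 3.52 and 2.46 CPM in Pygo1-KO, 0.928 and 0.426 CPM in Stc1-KO and 0.944 and 0.835 CPM in Rlim-KO, against 0.456 and 0.251 CPM in WT. The Pygo1-KO pair stood above all other libraries. The rise was 8.45-fold (log2 3.08 ± 0.48 SE; edgeR adjusted p = 0.0332), from 459 reads against 55. The 5 tested genes on 1 side belong to the same family, and none was called in Pygo1-KO. Trim12c, the nearest, stood at 1.09 on the log2 scale (edgeR adjusted p = 0.0772), and Trim34b, Trim12a, Trim5 and Trim34a, in order of distance, had 1.16, 0.89, 0.76 and 2.04 (adjusted p = 0.150 to 0.591). Of its 50-base stretches 5.98% also occur in Trim30d. This call too was lost without either library of Pygo1-KO, Rlim-KO or WT (edgeR adjusted p = 0.0667 to 0.321).

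Isg15, the ubiquitin-like modifier, and Usp18 did not pass. Isg15 had 1.22 and 2.82 CPM in Pygo1-KO, above the WT values of 1.02 and 0.940 CPM, while Stc1-KO and Rlim-KO lay below them at 0.652 to 0.887 CPM. Usp18 had 3.19 and 0.0932 CPM in Stc1-KO, 0.868 and 1.78 in Pygo1-KO and 1.36 and 1.53 in Rlim-KO, against 0.703 and 0.940 CPM in WT. The Stc1-KO replicates bracket every other library for Usp18, and its fitted log2 fold change there was 0.99 ± 1.16 (SE; edgeR adjusted p = 0.716).

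**Figure D3:**
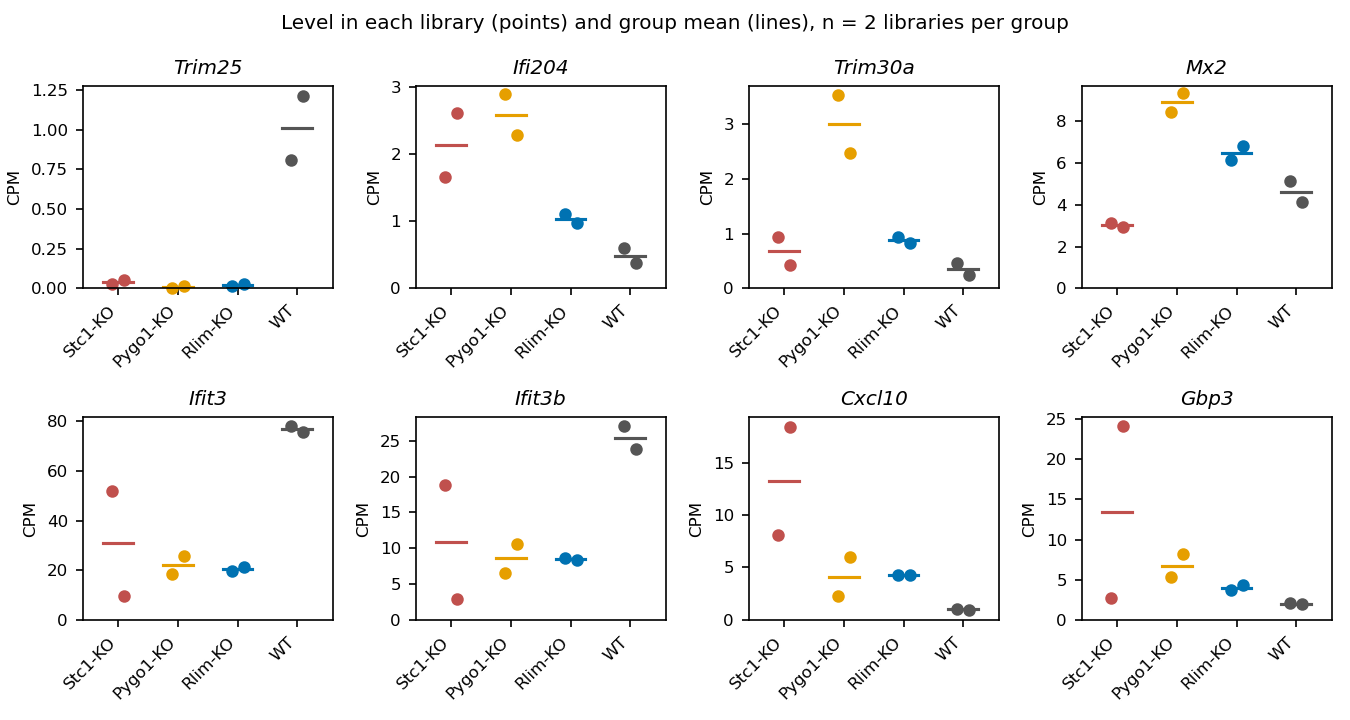
Level in CPM of 8 members in every library, with points for libraries, a line for the mean of each pair, and Stc1-KO, Pygo1-KO and Rlim-KO left of WT. Trim25 is near 0 in all knockout libraries and at 0.807 and 1.22 CPM in WT, whereas Cxcl10 and Gbp3 are lowest in WT.

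Membrane and other effectors were 9 genes, none of which passed. Bst2 had 46.3 and 67.9 CPM in Stc1-KO, 86.2 and 90.4 in Pygo1-KO and 44.96 and 48.4 in Rlim-KO, against 53.8 and 60.1 CPM in WT. Pygo1-KO lay above WT and Rlim-KO below it, with log2 fold changes of 0.63 ± 0.19 and -0.29 ± 0.18 (SE; edgeR adjusted p = 0.124 and 0.468). Between them the difference was 0.92 ± 0.19 (adjusted p = 0.0765). Above both WT libraries lay 3 of the 9 in Stc1-KO, 7 in Pygo1-KO and 5 in Rlim-KO, beside the 22.2%, 29.6% and 35.7% of all genes. The neighbouring genes Rsad2 (viperin) and Cmpk2, a nucleotide kinase, lay above WT in every knockout library, Cmpk2 by log2 fold changes of 0.78 to 0.87 (edgeR adjusted p = 0.0997 to 0.187).

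Psmb8, Psmb9 and Tap1 sit side by side on chromosome 17 and encode subunits of the immunoproteasome and the peptide transporter for MHC class I. Psmb8 had 1.69 and 18.6 CPM in Stc1-KO, 4.795 and 25.5 in Pygo1-KO and 7.76 and 8.40 in Rlim-KO, against 5.03 and 4.40 CPM in WT. Replicate 2 was the high library in both Stc1-KO and Pygo1-KO, and both pairs overlap WT. None of the 3 genes passed. Psmb8 overlaps Gm20496 on the other strand by 498 of its 3381 exonic bases, and Psmb9 and Tap1 share 212. With no strand setting stated for the counts, reads from such partners cannot be told apart. In all, 15 of the 41 members overlap another gene on either strand, by 24 to 637 exonic bases, and their values carry this uncertainty.

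Cxcl10, a chemokine that draws activated T cells (chromosome 5, 92346638 to 92348889, minus strand), was higher than WT in every knockout library but passed in none. Its level was 8.06 and 18.4 CPM in Stc1-KO, 2.29 and 5.99 CPM in Pygo1-KO and 4.29 and 4.27 CPM in Rlim-KO, against 1.07 and 0.965 CPM in WT. The log2 fold changes were 3.70 ± 0.57, 2.02 ± 0.54 and 2.07 ± 0.54 (SE; edgeR adjusted p = 0.0553, 0.105 and 0.117). By DESeq2 the gene passed in all 3 comparisons. It overlaps Art3 on the other strand by 133 exonic bases.

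**Figure D4:**
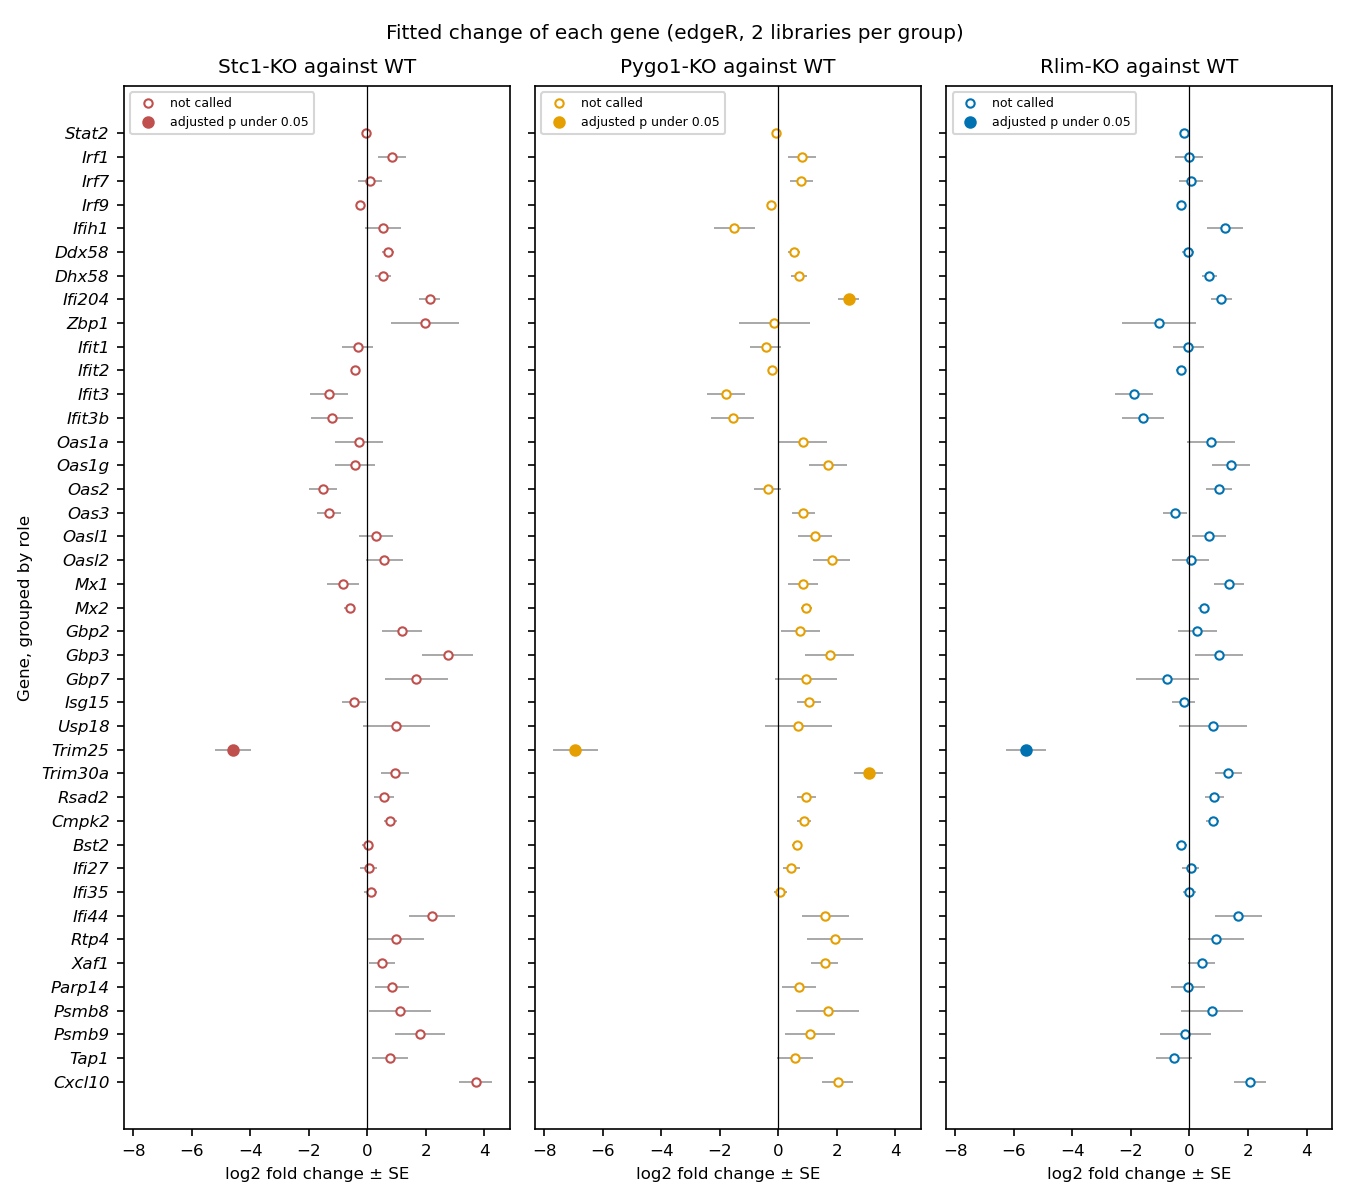
Log2 fold change ± SE against WT of the 41 genes by role, with a panel each for Stc1-KO, Pygo1-KO and Rlim-KO and called values as filled points. Trim25 lies between -6.94 and -4.58 in all 3 labels, and Ifi204 and Trim30a carry the other marks, both in Pygo1-KO.

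Between knockout labels, no member was called in Pygo1-KO against Rlim-KO or in Stc1-KO against Rlim-KO by edgeR, where 1.02% and 0.381% of all genes were. At an unadjusted p under 0.05 there were 11 and 8 members, where 16.2% and 14.9% of all genes passed, and DESeq2 called 4 in each, with 6.29% and 4.99% of all genes. Mx2 was 2.14-fold lower in Stc1-KO than in Rlim-KO without passing (log2 -1.10 ± 0.19 SE; edgeR adjusted p = 0.0737). In Pygo1-KO against Rlim-KO, 20 members lay above and 3 below without overlap, where 28.7% and 29.6% of all genes did. In Stc1-KO against Rlim-KO the numbers were 4 and 7, beside 22.5% and 23.4%.

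Other genes of the pathway were read from 5 lists chosen by function. No transcript of Ifna1, Ifna2, Ifna4, Ifna5 or Ifng was counted in any library, and Ifnb1, the interferon beta gene, had 1 read in 1 Rlim-KO library and 1 in 1 WT library. Of the 6 tested receptor genes, 2 lay above WT in Stc1-KO, 6 in Pygo1-KO and 5 in Rlim-KO, where 22.2%, 29.6% and 35.7% of all genes did, and none was called. Ifnar1 had 92.7 and 85.7 CPM in Stc1-KO, 97.1 and 94.6 in Pygo1-KO and 87.4 and 81.9 in Rlim-KO, against 80.2 and 75.3 CPM in WT. Ifnar2, the other chain of the type I interferon receptor, had 21.4 and 56.5 CPM in Stc1-KO, 50.7 and 46.9 in Pygo1-KO and 36.9 and 34.5 in Rlim-KO, against 25.5 and 26.7 CPM in WT. Their log2 fold changes in Pygo1-KO were 0.30 ± 0.11 and 0.90 ± 0.39 (SE; edgeR adjusted p = 0.178 and 0.250).

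Signalling genes downstream of the receptor were not called either, with 0 of 11 in each comparison. Socs3, a feedback inhibitor of the receptor kinases, lay above WT in all 6 knockout libraries, by log2 fold changes of 0.44, 0.70 and 0.56 in Stc1-KO, Pygo1-KO and Rlim-KO (edgeR adjusted p = 0.198, 0.0527 and 0.0977). Upstream of interferon, 0 of 15 tested genes were called. Mavs, the mitochondrial adaptor of the RNA sensors, ranged from 97.0 to 170.2 CPM, and Irf3, the factor that switches on interferon beta, from 62.2 to 88.5 CPM. Mb21d1 (cGAS), the cytosolic DNA sensor, kept to 4.41 to 7.89 CPM, and its adaptor gene Tmem173 (STING) had 6.54 and 1.97 CPM in Stc1-KO, with 0.919 to 1.77 CPM in the other 6 libraries.

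Of 29 further interferon-stimulated genes tested, Ifi203 and Lgals9 rose in Pygo1-KO and Lgals9 fell in Stc1-KO, with 0 called in Rlim-KO. Lgals9, which encodes the secreted lectin galectin 9, had 14.6 and 15.5 CPM in Stc1-KO, 79.6 and 80.4 CPM in Pygo1-KO and 23.8 and 25.8 CPM in Rlim-KO, against 26.3 and 28.8 CPM in WT. Its groups did not overlap, and the order of levels was Pygo1-KO, WT, Rlim-KO and Stc1-KO. The log2 fold changes were -0.87 ± 0.11 in Stc1-KO and 1.54 ± 0.12 in Pygo1-KO (SE; edgeR adjusted p = 0.0343 and 0.00311). Above both WT libraries lay 11 of the 29 in Stc1-KO, 20 in Pygo1-KO and 12 in Rlim-KO, where 22.2%, 29.6% and 35.7% of all genes did. Below them lay 2, 0 and 11, beside 22.2%, 31% and 35.6% of all genes. Among 10 genes of MHC class I and peptide loading, none was called in any of the 3 labels.

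Reads that carry a parental genome add a second readout, the share from genome 1 of the hybrid, and the labels do not say which parent that is. A minimum of 20 of these reads per library left 23 members to test. Genome 1 gave under 10% of reads over all libraries for 5 of them and over 90% for 5, that is 21.7% each, where 19.5% and 10.3% of 12476 genes did. Isg15 and Dhx58 had 0 reads of genome 1 in all 8 libraries. The median share of their neighbours was 24.8 to 34.7%, with 5 neighbours for Isg15. Here and below, share neighbours were only genes with 20 to 80% of genome 1 in WT. A WT median near 0 or 100% could not arise, so these medians cannot tell how the region as a whole was read. Gbp2 had 98.9 to 99.6% and Ifit2 95.9 to 100% of genome 1. Mapping to 1 parental reference can shift such shares, so comparisons were made between libraries.

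The share changed for 1 of 23 in Stc1-KO, 1 in Pygo1-KO and 2 in Rlim-KO, where 5.54%, 20% and 11.9% of all genes changed. Irf1 (chromosome 11, 53770014 to 53778374, plus strand) was read almost wholly from genome 2. Its genome 1 reads numbered 2 and 4 in Stc1-KO, 1 and 0 in Pygo1-KO and 1 and 5 in Rlim-KO, against 32 and 30 in WT, among 1657 to 6044 reads with a genome. The share was at most 0.223% in the knockout libraries, against 1.504 and 1.30% in WT. The log2 odds changed by -4.04, -6.45 and -3.39 in Stc1-KO, Pygo1-KO and Rlim-KO (edgeR adjusted p = 0.0382, 0.00600 and 0.0405). The Stc1-KO and Rlim-KO changes were lost without either library of WT, of Stc1-KO or of Rlim-KO, and the Pygo1-KO change without either WT library. Irf1 overlaps Gm17334 on the other strand by 135 exonic bases.

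For Bst2 the share of genome 1 was 23.5 and 23.1% in Rlim-KO, 48.0 and 47.8% in Stc1-KO and 47.4 and 44.1% in Pygo1-KO, against 38.1 and 36.9% in WT. Rlim-KO lay below WT and the other labels above it. The change in log2 odds was -0.98 ± 0.13 in Rlim-KO (SE; edgeR adjusted p = 0.0130), 0.62 in Stc1-KO and 0.49 in Pygo1-KO (adjusted p = 0.0609 and 0.0501). In CPM, genome 1 of Bst2 gave 7.55 and 7.95 in Rlim-KO against 14.7 and 15.4 in WT, while genome 2 gave 24.6 and 26.4 in Rlim-KO against 23.9 and 26.4 in WT. The lower share in Rlim-KO thus came with fewer reads of genome 1. The neighbours' median share was 49.4 and 47.9% in Rlim-KO and 55.9 and 55.2% in WT. The Rlim-KO call was lost without either library of Rlim-KO or WT.

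For 21 of the 41 members, the genes around them had a median share of genome 1 over 10 percentage points from the WT mean in some knockout library, 16 of them above it, 7 below and 2 of these in both directions. Members that lie together share neighbours, so this is not a count of separate regions. Ifit1, Ifit2, Ifit3 and Ifit3b, for example, had the same medians. The same count was not made over all genes. For Irf9, genome 1 gave 99.6% of reads in replicate 1 of Pygo1-KO and 49.8% in replicate 2, against 60.9 and 58.2% in WT, and its neighbours had medians of 99.6 and 53.2% in the same Pygo1-KO libraries. The level of Irf9 in that library was 16.7 CPM, against 21.5 and 21.9 CPM in WT. Around Ifit2 and Ifit3 the neighbours' median was 99.7% in both Pygo1-KO libraries, against 68.9 and 70.0% in WT. Around Usp18 it was 92.1 and 96.1% in Pygo1-KO and 96.8 and 96.4% in Rlim-KO, against 70.0 and 68.1% in WT. Around the 6 OAS genes it was 76.6 to 78.0% in replicate 1 and 99.6 to 99.9% in replicate 2 of Pygo1-KO, against 71.6 to 73.8% in WT. Around Parp14 it lay on the other side, at 39.9 and 37.6% in Pygo1-KO against 57.7 and 57.9% in WT. Ifit2 already had 99.1 and 98.3% of genome 1 in WT.

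**Figure D5:**
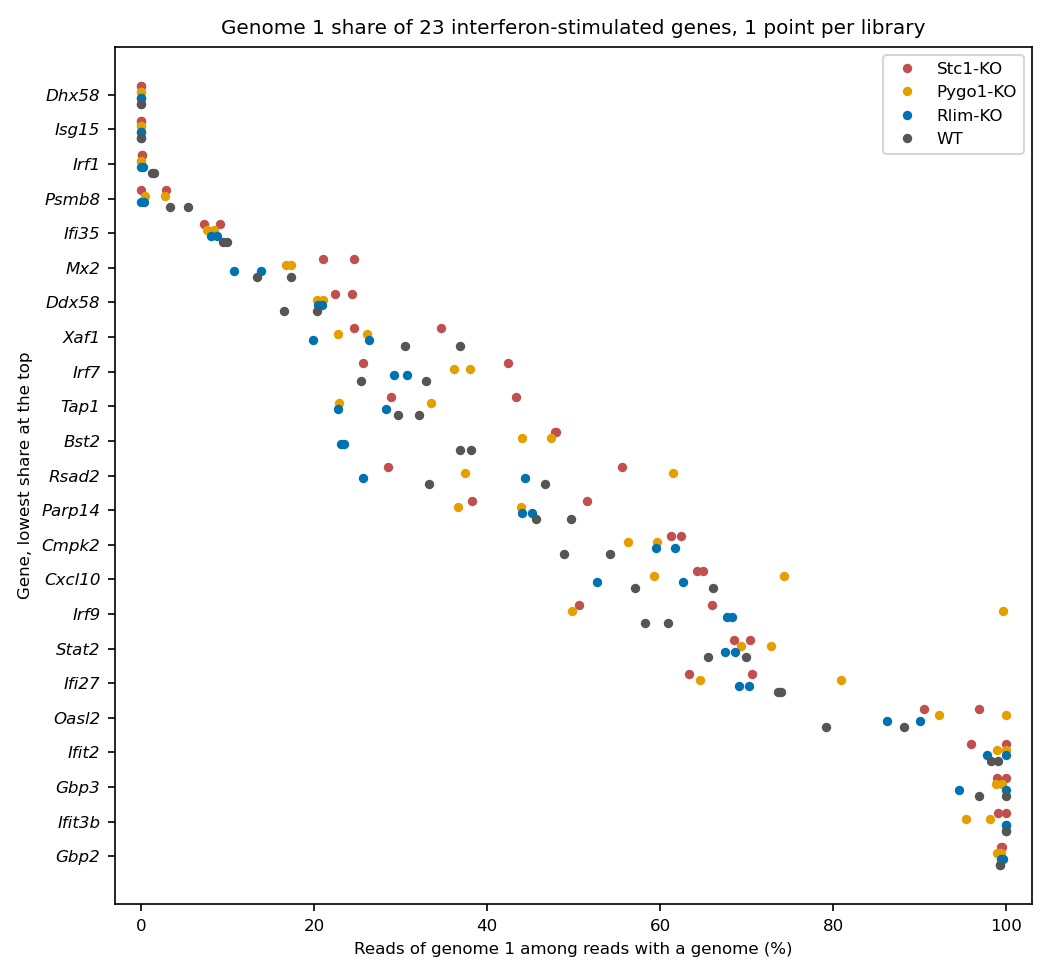
Share of reads with a genome that came from genome 1, in percent, for the 23 members that passed the read minimum, with 1 point per library coloured by group (Stc1-KO, Pygo1-KO and Rlim-KO drawn above WT within each gene). The genes lie along the whole scale, Irf9 reaches 99.6% in replicate 1 of Pygo1-KO, and the Rlim-KO points of Bst2 lie below those of the other groups.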

How the data were processed

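Total RNA from 8 libraries (4 groups of 2) was prepared with an Illumina TruSeq kit, per the labels' protocols. The submitters' processing notes name HISAT2 2.0.5, Cufflinks, featureCounts and mm10. The authors deposited raw counts per gene in 3 measures: all assigned reads, genome 1 and genome 2. The strand setting and the rule that assigned a genome are not given in the sources used here. Symbols, coordinates and sequences came from GENCODE M21 (GRCm38), to which 49411 of 49670 genes matched.

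A quasi-likelihood model of the counts (edgeR 4.0.16 in R 4.3.3) used TMM scaling, the default expression filter and 1 mean per group over all 8 libraries. The adjusted p covers all 17839 genes. Genome counts were fitted with a term per library and a genome term per group, for genes reaching 20 of these reads per library, leaving out 329 genes whose genome counts exceeded all counts. Shares carry 95% Wilson intervals in the tables behind the text, and intervals cover counting error only. Per-kilobase levels use exon length. DESeq2 1.42.0, other scalings, filters and sample sets were alternatives.

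The members and lists were chosen with earlier results of these data known. Named in full were members called in any comparison, the 3 largest non-overlapping changes per label among those with a mean of at least 1 CPM, and the highest in each role; listed genes were named when called or when central to the pathway. Gbp7, Isg15, Dhx58, Cmpk2, Socs3, Aim2, Cdh5, Oas2, Zbp1, Irf9 and Ifit2 were named after their values were seen. Promoters were not used here. A signalling gene of the lists is not reported by name here.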

Additional observations from a re-analysis of the deposited data

Results flagged for a closer look

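Mx2 differed between knockout labels by a test of the difference itself. Its log2 fold change in Pygo1-KO against Stc1-KO was 1.56 ± 0.19 (SE; edgeR adjusted p = 0.0175), with 8.45 and 9.34 CPM in Pygo1-KO and 3.10 and 2.94 CPM in Stc1-KO. All 41 members were examined in this way, and Mx2 was the 1 that passed.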

How the results depend on the processing

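The counts of called members are given in the order Stc1-KO, Pygo1-KO and Rlim-KO against WT, then Pygo1-KO against Rlim-KO, Stc1-KO against Rlim-KO and Pygo1-KO against Stc1-KO. They were 1, 3, 1, 0, 0 and 1 as reported, and the same on DESeq2 size factors. DESeq2 called 4, 10, 4, 4, 4 and 6, with 5.42, 9.57, 7.95, 6.29, 4.99 and 7.33% of all genes. Fitting the compared groups alone takes the spread from 4 libraries. It gave 0, 18, 28, 10, 0 and 0, with 0, 9.97, 48.9, 5.66, 0.0703 and 0% of all genes. No filter gave 3, 4, 2, 1, 1 and 3, with 1.23, 2.95, 2.08, 1.77, 1.13 and 2.32% of all genes. At least 1 CPM in at least 2 libraries gave 0, 3, 0, 0, 0 and 1, with 0.731, 2.78, 1.8, 1.37, 0.561 and 2.33%. An offset per chromosome gave 1, 3, 1, 1, 0 and 2, with 0.757, 2.64, 1.61, 1.12, 0.46 and 1.69% of all genes. An adjusted p under 0.10 gave 3, 5, 1, 1, 2 and 3, with 1.87, 6.55, 4.5, 3.17, 1.73 and 4.56%. With 1 library left out at a time, where a lone sample is assumed to vary like the other groups, the ranges were 0 to 24, 0 to 22, 0 to 10, 0 to 14, 0 to 22 and 0 to 19. The shares of all genes rose alongside, to 26% at most. The high ends came without replicate 1 of Stc1-KO, and for Rlim-KO against WT also without replicate 2. The causes were not tested.

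Same-numbered libraries correlated by -0.17 to 0.21 in their deviations. With 2 libraries per group this cannot decide whether the numbers pair samples, and the labels do not say that they do. The replicate block gave 0, 2, 0, 0, 0 and 0 called members, the Mx2 call among those lost. Of all genes, 0.101, 0.611, 0.146, 0.213, 0.0392 and 0.538% were called. For the genome share the block gave 0, 1 and 1, with 3.09, 14.6 and 4.41% of all genes. The genome share counts of 1, 1 and 2 became 1, 2 and 2 at 50 reads (6.21, 21.9 and 13.7% of all genes). With the compared groups alone they were 1, 1 and 7 (6.22, 10.9 and 40.1% of all genes). They moved as well with a library left out.

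Among fold changes of single named members, 547 kept direction and call, 82 newly passed, 28 no longer passed and 15 reversed. Bst2 in Stc1-KO, near 0, became -0.20 (chromosome offset), -0.0213 (no filter) and -0.0099 (replicate block). In Rlim-KO, Ddx58 became 0.0151 (chromosome offset) and Irf1 0.0183 (1 CPM filter). With a library left out, Irf1 in Rlim-KO ranged from -0.0423 to 0.0328. In Stc1-KO the ranges were -0.30 to 0.25 for Bst2, -0.31 to 1.47 for Irf1, -0.65 to 1.96 for Gbp2, -1.48 to 1.98 for Psmb8, -2.80 to 0.58 for Oas1a and -3.13 to 1.95 for Usp18, with 1 end of each reached without replicate 1 of Stc1-KO and the other without replicate 2. With 2 libraries per group, and WT levels near or under 1 CPM for Trim25, Ifi204 and Trim30a, depth and replicate number limit each call.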
